A study of Mus musculus with 9 samples.

Results

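The genes described here are the cadherins and the non-clustered protocadherins measured in the embryonic mouse cochlear duct. Members were chosen by name: protein-coding genes whose symbol is Cdh or Pcdh plus a number, without the clustered protocadherins and without Cdh5, Cdh23 and Pcdh15. Pcdh11x was counted as Pcdh plus a number. Of 54232 genes in the count files, 32 carried such a symbol, and 26 of these (15 cadherins and 11 protocadherins) had 10 or more counts in at least 3 of the 9 libraries. The other 6 (Cdh8, Cdh9, Cdh16, Cdh17, Cdh20 and Cdh26) had at most 20 counts in any library. Just inside the minimum were Cdh7 and Pcdh12, with 10 or more counts in 3 libraries each, and just outside it was Cdh17, with such counts in 2.

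Classical cadherins are transmembrane adhesion proteins. Their extracellular repeats bind calcium and engage like molecules on the neighbouring cell, and their cytoplasmic tails bind catenins that link the junction to actin. Type I members such as E-cadherin form strong epithelial and neural junctions, and type II members are often expressed in narrow, complementary domains that keep cell groups apart. Non-clustered protocadherins of the delta-1 and delta-2 groups adhere more weakly, do not bind beta-catenin, and act largely through cytoplasmic motifs, among them a motif that binds the WAVE actin regulator in several delta-2 members. In the cochlear epithelium E-cadherin and N-cadherin are known for their division between lateral and medial cells.

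RNA was sequenced from cochlear ducts at embryonic day 14.5 (E14.5), with both ducts of 1 embryo in each library. Heterozygotes kept on the FVB/NJ background were crossed, and 3 embryos of each of 3 genotypes were compared: WT (Prdm16 +/+), heterozygote (Prdm16 cGT/+) and null (Prdm16 cGT/cGT). The cGT allele is a gene trap of Prdm16, a zinc finger transcriptional regulator, and embryos carried it in all tissues, not in the duct alone. WT and heterozygous controls were littermates from these crosses, and p-values measure the spread between 3 embryos on each side. In these bulk libraries, fewer cells of a type and less RNA per cell cannot be told apart.

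Total counts ranged from 24095322 to 30819118 per library. Prdm16, the targeted gene, stood at 225, 197 and 184 CPM (counts scaled to library size by TMM) in WT replicates 1 to 3, at 151, 123 and 141 in the heterozygotes and at 23.7, 19.1 and 27.4 in the nulls. The genotypes did not overlap, with a log2 fold change of -3.12 in the nulls (edgeR adjusted p = 1.48e-04) and -0.55 in the heterozygotes (edgeR adjusted p = 0.0485) against WT. The heterozygote call was lost in 5 of 6 fits with 1 embryo left out (adjusted p 0.0674 to 0.226), with all 9 libraries (0.434), with the mesenchyme covariate (0.405), with limma-voom (0.0614) and under both other count filters. The libraries WT 1, WT 2 and null 3 stood apart from the rest. The sum of 8 mesenchyme markers was 628, 1049.7 and 1461 CPM in them against 175 to 244 in the other 6 libraries, and the sum of 6 endothelium markers was 63.3, 50.8 and 32.4 CPM against 4.46 to 7.75. The sum of 4 cartilage markers was 12441.5 CPM in null 3 and 5159 to 6190.4 elsewhere. The sum of 6 markers of the Kölliker's organ, the epithelial ridge beside the prosensory domain, was 3134 to 3912 CPM in WT, 2981 to 3691 in the heterozygotes and 1610.3 to 1891 in the nulls. The study named those 6 for that domain and also singled out several of them in these samples, so their direction is not independent evidence. Its single-cell data also place Dcn, 1 of the 8 mesenchyme markers, among genes enriched in the Kölliker's organ. Dcn had 4956, 4614 and 3589 counts in WT 1, WT 2 and null 3, and 2864 to 5208 elsewhere. In the heterozygotes it averaged 162 CPM of a mesenchyme sum of 221 to 244, most of the sum there. Dcn was kept in that sum. Other sums differed between genotypes as well. The 5 roof markers summed to 7559 to 8831 CPM in WT, 9133 to 9557 in the heterozygotes and 10437 to 13889 in the nulls. The nulls also lay above WT for 4 outer sulcus markers (1403 to 1966 against 1189.7 to 1350 CPM) and 5 prosensory domain markers (739 to 981 against 664 to 731 CPM), and below WT for 5 melanocyte markers (18.7 to 50.8 against 61.5 to 140.4 CPM). The heterozygotes had 1258 to 1513, 808 to 835 and 28.1 to 47.7 CPM for these lists. All their prosensory sums lay above the lowest null, so that sum did not follow the order of the genotypes. Fits with the mesenchyme sum as a covariate called 7 members in null against WT (6 lower and 1 higher), 1 in heterozygote against WT and 3 in null against heterozygote, where the fits without it called 5, 1 and 3. Fits without WT 1, WT 2 and null 3 leave WT 3 as the only WT embryo, so comparisons with WT from them are given as values with no p. The part of the other marker sums in the results was not tested.

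Levels between genes were compared as CPM per kilobase of exon (CPM per kb). Among the 26 members, the type I cadherins Cdh1 and Cdh3 led in WT, with means of 79.1 ± 2.15 and 60.2 ± 5.48 CPM per kb (SD, n = 3), which is 26.4% and 20.1% of the summed level of all members. Cdh4 followed at 33.5 CPM per kb, then Cdh24 at 30.8, Cdh11 at 25.1 and Cdh2 at 21.0. The WT ranges of Cdh4 (31.7 to 36.9) and Cdh24 (28.3 to 32.3) overlapped, whereas those of Cdh1 and Cdh3 (77.1 to 81.4 and 56.5 to 66.5) did not. The most abundant protocadherin was Pcdh18 at 14.1 CPM per kb, ahead of Pcdh7 at 10.7 and Pcdh17 at 5.18, and 9 members from Cdh22 down to Cdh7 were below 1 CPM per kb in WT. In the nulls the order changed near the top. Cdh1 (72.2 to 86.4 CPM per kb) and Cdh3 (71.2 to 81.4) overlapped there, and Cdh4 (18.0 to 19.7) lay below every null value of Cdh24 (23.9 to 29.7).

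**Figure D1:**
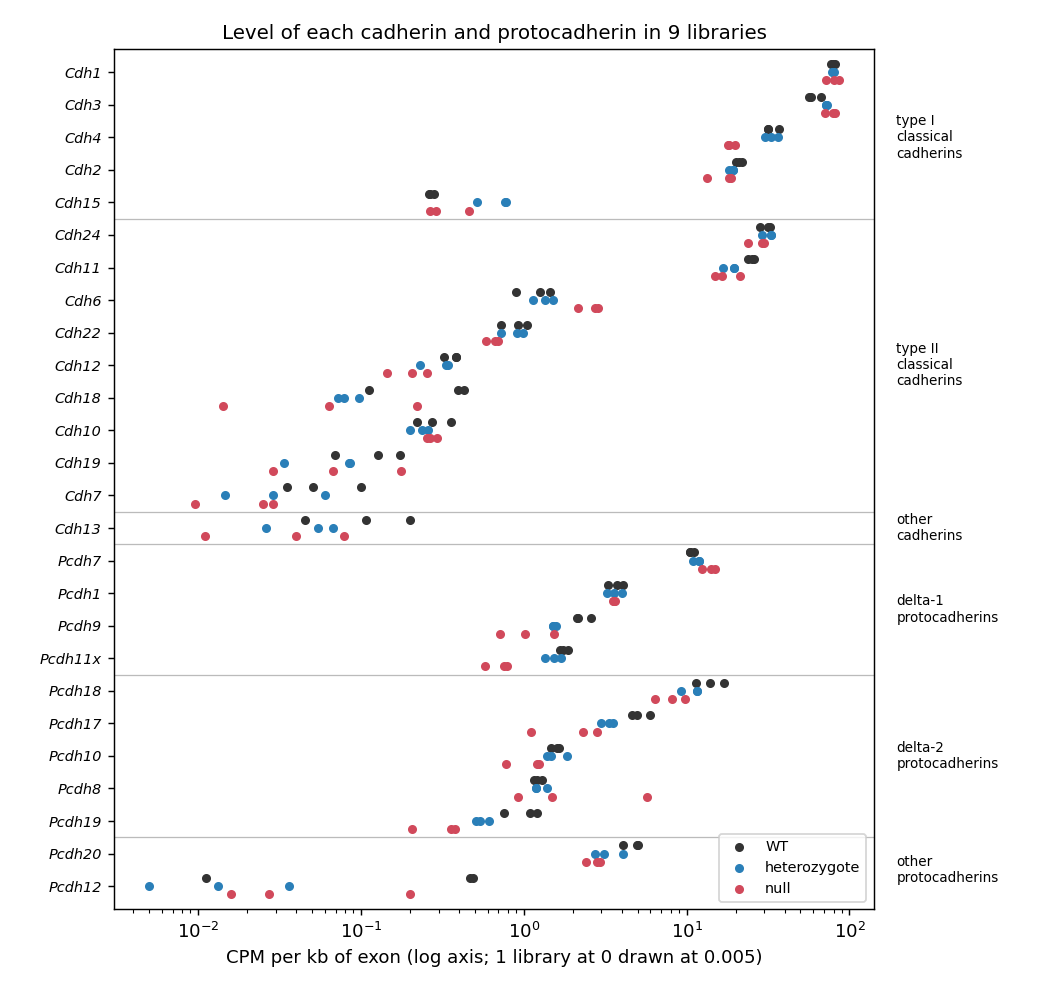
Level of each of the 26 members in 9 libraries, as CPM per kb of exon on a log axis, ordered by class and by WT mean within a class; each point is 1 embryo. Cdh1 leads in WT at 77.1 to 81.4 CPM per kb, and the Pcdh8 point of null 3 (5.69) and the Pcdh12 points of WT 1 and WT 2 (0.471 and 0.486) lie far from the other libraries.

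The comparison of null with WT asked which adhesion genes changed when both copies of Prdm16 carried the gene trap. A gene was called when its edgeR quasi-likelihood p, adjusted over all genes tested, was under 0.05 and its absolute log2 fold change over 0.5. Of 25 members tested, 4 fell (Cdh4, Pcdh11x, Pcdh19 and Pcdh20) and 1 rose (Cdh6), which is 20% of the members against 1.71% of the 17168 genes tested. By direction, 0.786% of all genes tested were called lower and 0.920% higher. The log2 fold change was below 0 for 19 of the 25 members, with a median of -0.52 against 0.0097 over all genes, of which 48.1% were below 0. The null and WT values did not overlap for 12 members that were lower and 3 that were higher in the nulls (15 of 25), against 19.0% of all genes tested (8.95% lower and 10.1% higher). At an unadjusted p under 0.05 there were 11 lower and 3 higher members, against 5.76% and 6.48% of all genes. The protocadherins had a median of -0.80 (11 tested) and the cadherins -0.39 (14 tested). DESeq2 called 9 members (8 lower and 1 higher) and 3.55% of all genes. There were 8 edgeR calls with null 3 left out and 1 with WT 1 left out.

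**Figure D2:**
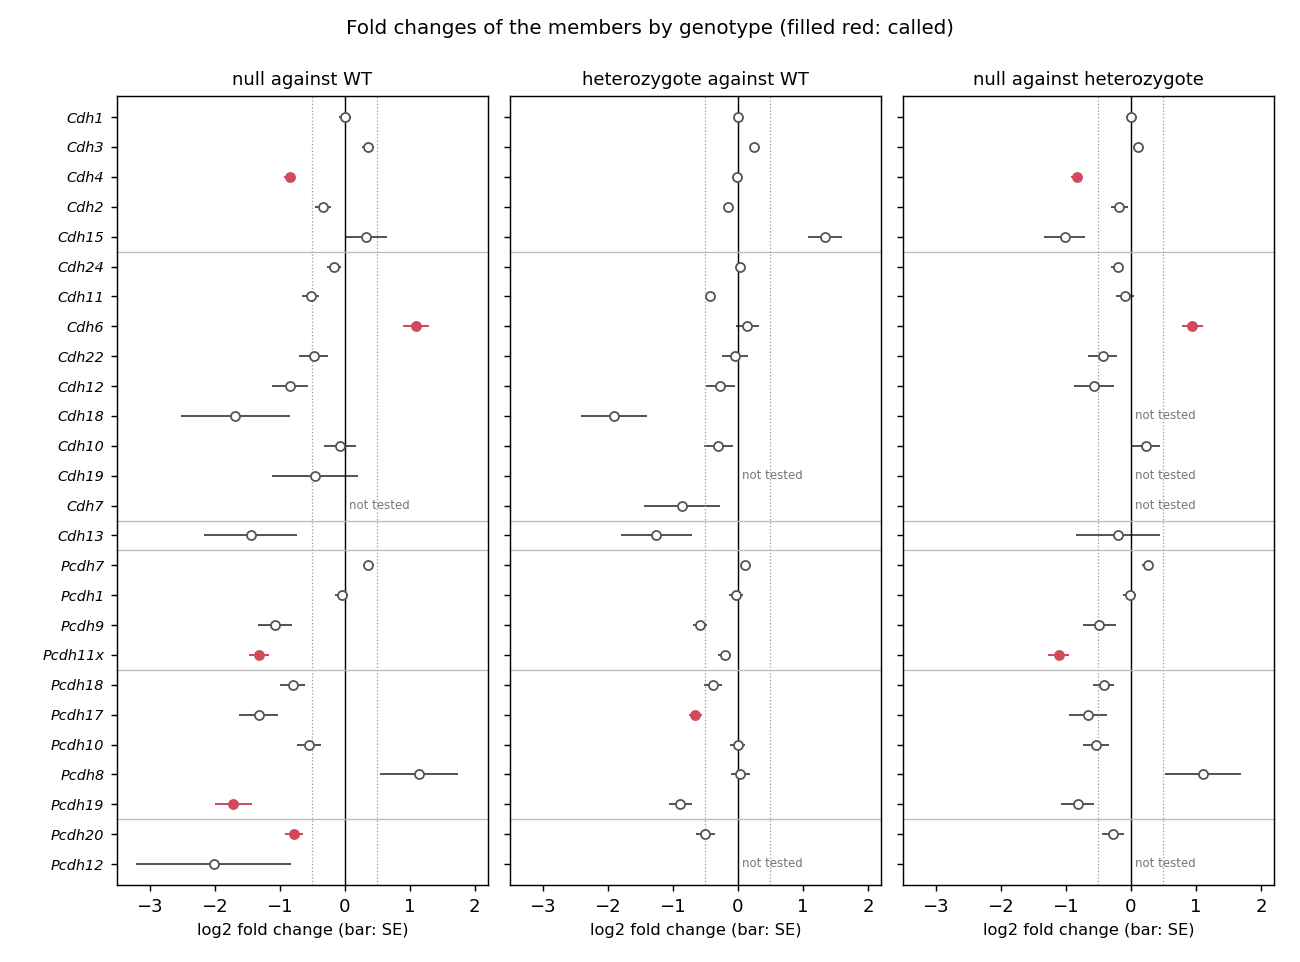
Log2 fold change of each member with its standard error in the 3 comparisons (6 libraries each, edgeR), ordered by class; filled red points are called, and dotted lines mark 0.5. Most points of the delta protocadherins lie left of 0 in the null against WT panel, while Cdh1 lies at 0 in all 3 panels.

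Of the 5 type I cadherins, Cdh4 was the one called, and it was lower in the nulls. Cdh4 (R-cadherin, ENSMUSG00000000305, chr2:179442431-179899373, mm10, plus strand), a neural and epithelial cadherin that can also pair with N-cadherin, stood at 268, 230.3 and 230.2 CPM in WT, 264, 221 and 238 in the heterozygotes and 143, 132 and 131 in the nulls. Every null value lay far below the other 6, and the WT and heterozygote values were mixed. The study's single-cell data from WT ducts list Cdh4 among the genes most enriched in the Kölliker's organ, whose marker sum was also lower in the nulls. The part of that in the fall was not tested. Cdh4 fell to 55.8% of the WT mean in the nulls (log2 fold change -0.85, SE 0.085, edgeR adjusted p = 0.00408) and was at 99.1% in the heterozygotes (log2 fold change -0.013, adjusted p = 0.959). The fall was called with any 1 of the 6 embryos left out. Without WT 1, WT 2 and null 3 it was -0.74 against the 1 WT embryo left, and against the heterozygotes -0.81 with an adjusted p of 0.00649.

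Cdh1 (E-cadherin), the main adhesion molecule of epithelial junctions, had 361, 353 and 372 CPM in WT, 367, 358 and 363 in the heterozygotes and 368, 395 and 330.3 in the nulls. The 3 genotypes overlapped, with log2 fold changes against WT of 0.0050 in the nulls (SE 0.086, adjusted p = 0.987) and 0.0020 in the heterozygotes. Its neighbour Cdh3 (P-cadherin), a second epithelial cadherin, had 253, 247 and 292 CPM in WT, 315, 318 and 314 in the heterozygotes and 348, 357 and 312 in the nulls. All WT values were the lowest, with log2 fold changes of 0.36 in the nulls (adjusted p = 0.147) and 0.26 in the heterozygotes (adjusted p = 0.0938), neither past the test. Cdh3 and Cdh1 lie 46.1 kb apart on chromosome 8. Cdh2 (N-cadherin) averaged 169 ± 6.77 CPM in WT, 152 ± 5.53 in the heterozygotes and 135 ± 23.9 in the nulls (SD, n = 3), with a log2 fold change of -0.33 in the nulls (adjusted p = 0.343). Cdh15 (M-cadherin), known from muscle, was low throughout: 0.852, 0.863 and 0.916 CPM in WT, 1.69, 2.52 and 2.49 in the heterozygotes, and 0.867, 0.937 and 1.51 in the nulls. The heterozygotes stood above all other libraries, on 42 to 70 counts against 21 to 36, and the difference from WT (log2 fold change 1.34, adjusted p = 0.0649) did not pass. The sum of 5 skeletal muscle markers was at most 3.94 CPM in any library.

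Cdh6 (K-cadherin, ENSMUSG00000039385, chr15:13028701-13173675, mm10, minus strand) was the type II cadherin that rose, a member known from kidney, neural crest and boundaries in the brain. It stood at 11.4, 13.2 and 8.11 CPM in WT, 10.3, 13.7 and 12.2 in the heterozygotes and 24.6, 19.5 and 25.6 in the nulls. The nulls were separate from the rest, and the heterozygotes overlapped WT. The nulls reached 213% of the WT mean (log2 fold change 1.09, SE 0.20, edgeR adjusted p = 0.0426). The call was lost with any 1 of the 6 embryos left out, at adjusted p values of 0.0529 to 0.176 and log2 fold changes of 0.92 to 1.26. It was also lost with sex in the fit (1.11, adjusted p = 0.0794). With the mesenchyme covariate it was 1.18 (adjusted p = 0.0120), and against WT 3 alone, the WT embryo with the lowest Cdh6, 1.45.

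Cdh11 (OB-cadherin), a cadherin of mesenchyme and of some epithelia, had 212, 225 and 232 CPM in WT, 174, 149.9 and 175 in the heterozygotes and 146, 133 and 189 in the nulls. All 6 mutant values lay below the WT range. Against WT the log2 fold change was -0.42 in the heterozygotes (SE 0.064, edgeR adjusted p = 0.0453, which 0.261% of all genes passed at any fold, and under the fold threshold) and -0.52 in the nulls (SE 0.13, adjusted p = 0.124). Null 3, with the highest mesenchyme markers, had the highest Cdh11 of the nulls, whereas WT 3, with the lowest mesenchyme markers of the WT embryos, had the highest Cdh11 of WT. Without the 3 mesenchyme-rich libraries the values were -0.48 and -0.73. The most abundant type II member, Cdh24, which binds alpha- and beta-catenin like its class, had 111, 98.6 and 113 CPM in WT, 115, 114 and 101 in the heterozygotes and 101, 104 and 83.4 in the nulls. Its genotypes overlapped (log2 fold change -0.17 in the nulls, adjusted p = 0.583).

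Of the remaining type II members, Cdh12 and Cdh22, both known from brain, were lower in all 3 nulls than in any WT embryo. Cdh12 averaged 2.29 ± 0.213 CPM in WT and 1.27 ± 0.354 in the nulls (log2 fold change -0.84, adjusted p = 0.257), and Cdh22 averaged 3.33 ± 0.586 and 2.40 ± 0.208 (-0.48, adjusted p = 0.450; SD, n = 3). Cdh10 overlapped between genotypes at 2.01 to 3.60 CPM. Cdh18, a brain cadherin, was highest in the libraries with mesenchyme and endothelium markers: 1.96 and 1.80 CPM in WT 1 and WT 2, 1.01 in null 3, and 0.0646 to 0.509 in the other 6. Its log2 fold change in the heterozygotes went from -1.90 (adjusted p = 0.135) to -0.43 without those libraries. Cdh19, known from Schwann cell precursors, had 3 to 19 counts per library, and its genotypes overlapped. Cdh7 had 27, 9 and 15 counts in WT, 15, 8 and 4 in the heterozygotes and 7, 3 and 6 in the nulls. Its nulls lay below WT, and at these counts the filter kept it out of the null against WT test. Cdh13 (T-cadherin), which is anchored by a lipid and lacks a cytoplasmic tail, followed the order of Cdh18 in part, with 2.26, 1.22 and 0.880 CPM in WT 1, WT 2 and null 3 and 0.124 to 0.763 in the other libraries. Its log2 fold change in the heterozygotes was -1.25 with all libraries (adjusted p = 0.366) and 0.12 without those 3.

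**Figure D3:**
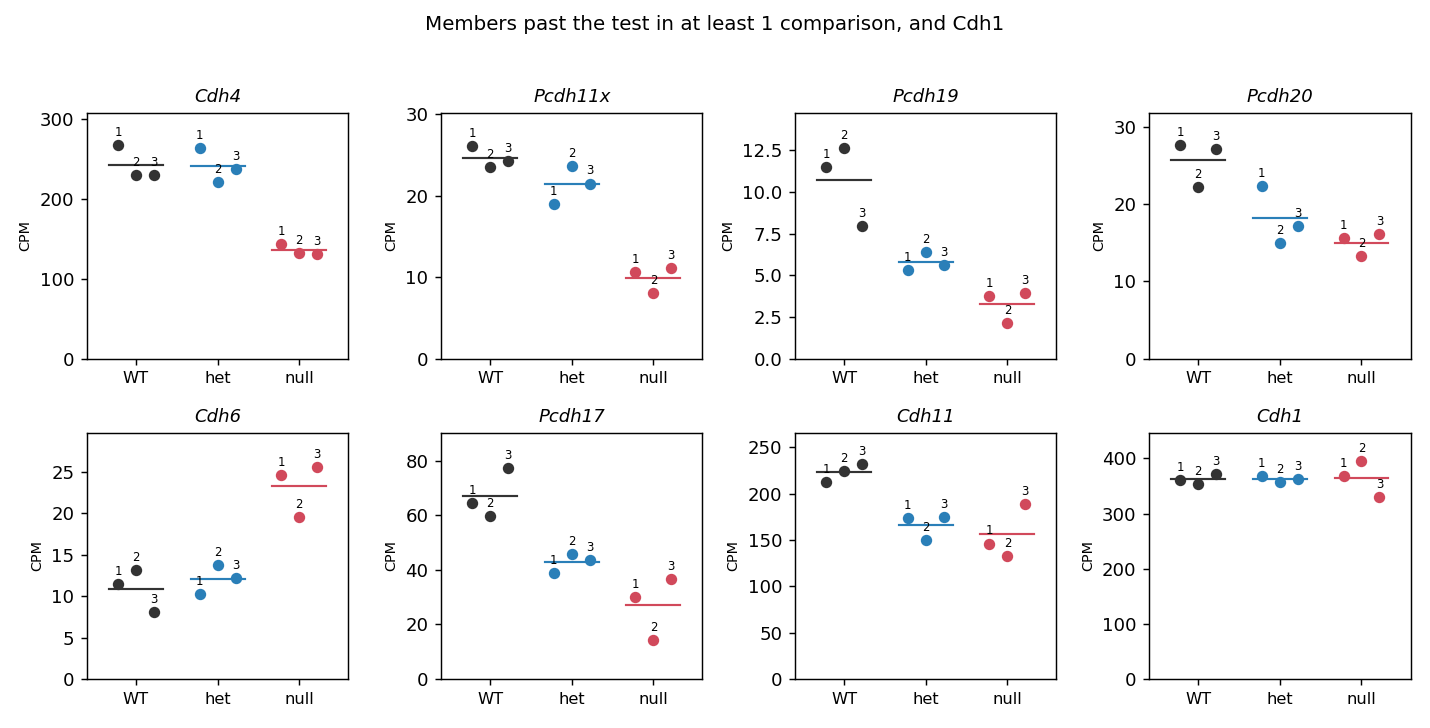
TMM-scaled CPM in each embryo (numbered by replicate; horizontal line, mean of 3) for the members past the adjusted p threshold in at least 1 comparison and for Cdh1. The nulls of Cdh4 (131 to 143 CPM) and Pcdh11x (8.07 to 11.1 CPM) lie apart from WT and heterozygotes, which overlap, while Pcdh17 and Pcdh19 have heterozygotes between WT and nulls.

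Among the delta-1 protocadherins, Pcdh11x (ENSMUSG00000034755, chrX:120290259-120910619, mm10, plus strand), a neural protocadherin, fell. It stood at 26.0, 23.5 and 24.3 CPM in WT, 19.0, 23.7 and 21.5 in the heterozygotes and 10.6, 8.07 and 11.1 in the nulls. The nulls held 40.3% of the WT mean (log2 fold change -1.32, SE 0.15, edgeR adjusted p = 0.00603), and the heterozygotes 86.9% (log2 fold change -0.20, adjusted p = 0.419). The gene is X-linked and the sexes were unequally spread: WT 1, het 1, null 1 and null 2 were male by their Y-linked counts. Within males the values were 26.0 in WT and 10.6 and 8.07 in the nulls, within females 23.5 and 24.3 in WT and 11.1 in the null, and with sex in the fit the log2 fold change was -1.30 (adjusted p = 0.0151). The call was lost without WT 1 (adjusted p = 0.0507) and held in the other 5 fits that left out 1 embryo.

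Pcdh7, the most abundant delta-1 member and a binder of protein phosphatase 1 by its cytoplasmic tail, went the other way. It had 112, 111 and 118 CPM in WT, 116, 126 and 126 in the heterozygotes and 157, 132 and 149.7 in the nulls. All nulls were above all WT embryos, with a log2 fold change of 0.36 (SE 0.084, adjusted p = 0.0925) that did not pass. It shares 2235 exonic bases with the opposite-strand gene 4932441J04Rik, which had at most 122 counts in a library, and the strand setting of the counting is not known. Pcdh9, known from brain, had 17.5, 14.6 and 14.5 CPM in WT, 10.2, 10.2 and 10.6 in the heterozygotes and 6.94, 4.88 and 10.4 in the nulls. Both mutant groups lay below WT, at 66.7% and 47.7% of its mean, without passing the test (adjusted p = 0.0636 and 0.116). With the mesenchyme covariate the null value of Pcdh9 was -1.01 (adjusted p = 0.0446). Pcdh1, the one delta-1 member linked to airway epithelium, overlapped in all genotypes at 28.6 to 35.9 CPM.

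The delta-2 protocadherins were the class with the lowest median in the nulls among classes of more than 2 members, at -0.80 over 5 genes. Pcdh19 (ENSMUSG00000051323, chrX:133582860-133688987, mm10, minus strand), the X-linked gene mutated in a female-limited epilepsy, had the largest fold change of the called members. It stood at 11.5, 12.6 and 7.97 CPM in WT, 5.30, 6.42 and 5.63 in the heterozygotes and 3.76, 2.16 and 3.94 in the nulls. The 3 genotypes were separate, and the nulls held 30.7% of the WT mean (log2 fold change -1.71, SE 0.28, edgeR adjusted p = 0.0282). The heterozygotes held 54.1%, with a log2 fold change of -0.88 that did not pass (SE 0.18, adjusted p = 0.0715) and was -0.46 without WT 1 and WT 2. Within males the WT value was 11.5 and the null values 3.76 and 2.16, within females 12.6 and 7.97 against 3.94, and with sex in the fit the log2 fold change was -1.68 (adjusted p = 0.0572). The null call held in 2 of 6 fits that left out 1 embryo, and was lost with the replicate number as a block.

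Pcdh17 (ENSMUSG00000035566, chr14:84443563-84539002, mm10, plus strand), which recruits the WAVE complex to cell contacts of growing axons, was the member called in the heterozygotes. It had 64.5, 59.9 and 77.5 CPM in WT, 38.8, 46.0 and 43.5 in the heterozygotes and 30.1, 14.4 and 36.7 in the nulls. The 3 genotypes did not overlap, in the order WT, heterozygote, null. The study's single-cell data from WT ducts list Pcdh17 among the genes most enriched in the outer sulcus, whose marker sum was higher in the nulls. The heterozygotes held 63.6% of the WT mean (log2 fold change -0.65, SE 0.099, edgeR adjusted p = 0.0464). The nulls held 40.3% (log2 fold change -1.32, SE 0.30) and did not pass, at an edgeR adjusted p of 0.0925. The SD was 11.5 CPM in the nulls, 9.12 in WT and 3.64 in the heterozygotes (n = 3). With the mesenchyme covariate the log2 fold changes were -0.86 in the heterozygotes (adjusted p = 0.0137) and -1.30 in the nulls (adjusted p = 0.0650). The heterozygote call was lost with all 9 libraries in one fit and with limma-voom, and held in 1 of 6 fits that left out 1 embryo.

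Pcdh18 had 74.9, 90.6 and 61.1 CPM in WT, 49.7, 62.6 and 61.8 in the heterozygotes and 43.9, 34.2 and 52.4 in the nulls. The nulls lay below WT and overlapped the heterozygotes, at a log2 fold change of -0.80 (SE 0.19, adjusted p = 0.0984). In the heterozygotes it was -0.38 with all libraries and -0.07 without WT 1 and WT 2. Pcdh10 (OL-protocadherin), which also binds the WAVE complex, averaged 24.98 ± 1.46 CPM in WT, 24.98 ± 3.92 in the heterozygotes and 17.2 ± 4.14 in the nulls (SD, n = 3), a log2 fold change of -0.55 in the nulls (adjusted p = 0.257). Pcdh8 (arcadlin in neurons, PAPC in early mesoderm) had 4.17 to 6.78 CPM in 8 libraries and 25.8 in null 3. Its log2 fold change in the nulls was 1.14 with null 3 (adjusted p = 0.505) and -0.012 without it. That library also had the highest mesenchyme and cartilage sums.

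Of the other protocadherins, Pcdh20 (ENSMUSG00000050505, chr14:88464743-88471396, mm10, minus strand), known from neurons, fell. It stood at 27.7, 22.2 and 27.1 CPM in WT, 22.4, 14.96 and 17.2 in the heterozygotes and 15.6, 13.2 and 16.2 in the nulls. All nulls were below all WT embryos, and the heterozygotes overlapped both, with the highest heterozygote just above the lowest WT embryo. The nulls held 58.4% of the WT mean (log2 fold change -0.78, SE 0.13, edgeR adjusted p = 0.0327) and the heterozygotes 70.8% (log2 fold change -0.50, adjusted p = 0.166). The null call held in 1 of 6 fits that left out 1 embryo. It was lost with the replicate number as a block and with sex in the fit (adjusted p = 0.0727). Against WT 3 alone the log2 fold change was -0.91. Pcdh12 (VE-cadherin-2), a protocadherin of endothelium, had 2.85 and 2.94 CPM in WT 1 and WT 2, 1.22 in null 3, and 0 to 0.219 in the other 6 libraries. These are the 3 libraries with the highest endothelium sums, and its log2 fold change in the nulls of -2.01 (SE 1.19, adjusted p = 0.565) was not past the test.

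**Figure D4:**
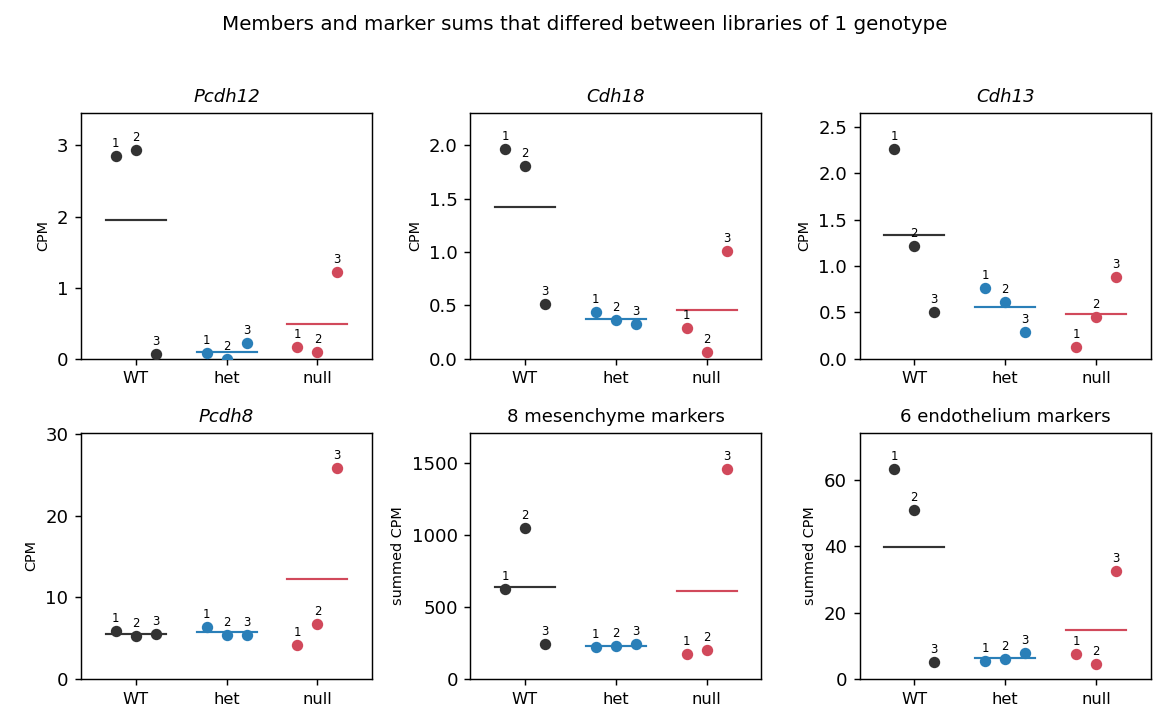
CPM of 4 members and summed CPM of 2 marker lists in each embryo (numbered by replicate; horizontal line, mean of 3). WT 1, WT 2 and null 3 have the highest marker sums and the highest Pcdh12 and Cdh18, and null 3 alone is high for Pcdh8 at 25.8 CPM.

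The promoters of called members are shown so that the 3 genes lower in mutant ducts can be read beside Cdh6, the gene that was higher. The RefSeq promoter table (GRCm38.p6, the same assembly as mm10) matched 16 of the 26 members, with Cdh4 and Pcdh11x among those not matched. Each line gives the 250 bases before the annotated start, 5′ to 3′ on the gene's strand, with matches to the searched motifs in capitals. They lie at chr15:13173676-13173925 (minus strand) for Cdh6, chr14:84443313-84443562 (plus strand) for Pcdh17, chrX:133688994-133689243 (minus strand) for Pcdh19 and chr14:88471397-88471646 (minus strand) for Pcdh20.
Cdh6: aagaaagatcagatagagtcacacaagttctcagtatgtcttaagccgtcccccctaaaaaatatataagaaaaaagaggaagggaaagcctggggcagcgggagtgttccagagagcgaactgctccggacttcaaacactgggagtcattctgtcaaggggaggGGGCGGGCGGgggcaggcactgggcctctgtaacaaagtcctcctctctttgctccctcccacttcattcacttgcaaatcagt
Pcdh17: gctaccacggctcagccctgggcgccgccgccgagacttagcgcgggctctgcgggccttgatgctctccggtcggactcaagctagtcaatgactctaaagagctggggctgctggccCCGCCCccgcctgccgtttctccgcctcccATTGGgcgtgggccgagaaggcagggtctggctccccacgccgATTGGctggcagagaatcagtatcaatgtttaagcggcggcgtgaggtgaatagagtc
Pcdh19: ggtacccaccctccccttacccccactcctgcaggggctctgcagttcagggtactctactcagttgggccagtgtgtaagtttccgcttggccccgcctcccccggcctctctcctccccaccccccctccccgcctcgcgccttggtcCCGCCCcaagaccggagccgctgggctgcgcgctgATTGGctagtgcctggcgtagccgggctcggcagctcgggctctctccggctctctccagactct
Pcdh20: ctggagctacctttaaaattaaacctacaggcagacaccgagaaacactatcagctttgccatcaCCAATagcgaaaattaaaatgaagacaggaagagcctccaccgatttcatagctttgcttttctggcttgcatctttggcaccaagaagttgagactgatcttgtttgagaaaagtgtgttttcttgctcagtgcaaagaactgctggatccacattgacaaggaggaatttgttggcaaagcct
The motifs, read on both strands, were the GC box GGGCGG, the CCAAT box CCAAT, the TATA box TATAAA, the E2 box CAGGTG bound by SNAI and ZEB repressors, and GAAGATGAG, a sequence bound by the second zinc finger domain of MECOM, the closest relative of PRDM16. Cdh6 held 2 overlapping GC boxes 84 and 80 bases before its start and no CCAAT box. Pcdh17 and Pcdh19 each held 1 GC box, together with 2 CCAAT boxes in Pcdh17 and 1 in Pcdh19, and Pcdh20 held 1 CCAAT box and no GC box. Over the same 250 bases of 32851 promoters, 32.7% held a GC box, 33.8% a CCAAT box, 12.4% a TATA box, 17.2% an E2 box and 0.347% GAAGATGAG. Of the 19 member promoters, 8 held a GC box, 10 a CCAAT box, 2 an E2 box (both of Cdh7), 1 a TATA box (Pcdh8) and 0 GAAGATGAG. The 10 include 2 overlapping entries of Pcdh9 that hold the same CCAAT box. The GC content was 64.8% for Pcdh17 and 69.2% for Pcdh19, 51.2% for Cdh6 and 42.4% for Pcdh20, against a median of 52.4% over all promoters. Pcdh17, Pcdh20 and Pcdh9 follow one another on chromosome 14, 3.93 and 4.54 Mb apart, with null values below WT, and Pcdh8, 4.67 Mb before Pcdh17, had a log2 fold change of 1.14.

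The heterozygotes shared the WT libraries with the comparison above, so their values are given beside it and not as a second test of it. Of 24 members tested, Pcdh17 was the only one called, against 0.151% of the 17269 genes tested (0.0984% lower and 0.0521% higher). The median log2 fold change of the members was -0.18 against 2.94e-05 over all genes, and 17 of 24 were below 0, as were 8634 of the 17269 genes. At an unadjusted p under 0.05 there were 9 lower and 3 higher members, against 7.33% and 5.80% of all genes. The values of 6 lower and 2 higher members did not overlap WT (33.3%, against 18.0% of all genes, 8.99% lower and 8.97% higher). Cdh2, Cdh11, Cdh18, Pcdh9, Pcdh17 and Pcdh19 had heterozygote values wholly below WT and Cdh3 and Cdh15 wholly above, whereas Cdh4, Cdh6, Pcdh11x and Pcdh20, called between null and WT, had heterozygote values that overlapped WT. DESeq2 called 6 members in this comparison and 1.73% of all genes, and limma-voom and the fit of all 9 libraries called 0. Leaving out WT 3 gave 7 calls, and leaving out any 1 of the other 5 embryos gave 0.

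Null against heterozygote, which shares both mutant groups with the comparisons above, gave 3 calls among 22 members tested, against 0.615% of the 17067 genes tested (0.322% lower and 0.293% higher). Cdh4 fell by 0.83 (SE 0.087, edgeR adjusted p = 0.00812) and Pcdh11x by 1.11 (SE 0.16, edgeR adjusted p = 0.0287) on the log2 scale, and Cdh6 rose by 0.95 (SE 0.16, edgeR adjusted p = 0.0481). Without heterozygote 1 or heterozygote 3 there were 0 calls, and without heterozygote 2 or null 1 there was 1. Cdh4 was called in 4 of 6 such fits, and Pcdh11x and Cdh6 in 2 of 6 each. The Cdh6 call was also lost with limma-voom, a mean count over 100 and the replicate block, and the Pcdh11x call with the block. Pcdh19, at -0.82 (adjusted p = 0.293), and Pcdh17, at -0.66 (adjusted p = 0.440), did not overlap between the groups and did not pass. The median of the members was -0.24 against 0.012 over all genes, and 16 of 22 were below 0 against 47.7% of all genes. At an unadjusted p under 0.05, 6 were lower and 2 higher, against 5.25% and 6.14% of all genes. The groups did not overlap for 9 of the 22 members (7 lower and 2 higher), against 18.2% of all genes (9.09% lower and 9.06% higher), and DESeq2 called 2.11% of all genes. Whether the steps from WT to heterozygote and from heterozygote to null differed was tested in a fit of all 9 libraries, chosen after the values were seen. This difference (null minus heterozygote, less heterozygote minus WT) was -0.82 for Cdh4 (unadjusted p = 2.11e-04, adjusted p = 0.289) and -0.91 for Pcdh11x (unadjusted p = 0.00263, adjusted p = 0.651). It was -2.36 for Cdh15, whose values went up at the first step and down at the second (unadjusted p = 5.58e-04), and 0.80 for Cdh6 (unadjusted p = 0.0361). No member passed, against 2 of 17797 genes. There were 5 of 26 members, the fifth being Pcdh12, and 6.94% of all genes at an unadjusted p under 0.05.

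The proteins that work with cadherins were counted from a list of catenins, actin linkers, nectins, the WAVE complex and other cadherin superfamily genes, of which 44 of 50 in the files were tested in null against WT. One was called: Pcdh15, a tip-link protocadherin of hair cells, fell from 56.7 ± 3.63 to 32.3 ± 6.08 CPM (SD, n = 3, log2 fold change -0.82, edgeR adjusted p = 0.0368). That is 1 of 44, against 1.71% of all genes, where DESeq2 called 3 (1 lower and 2 higher) and 3.55% of all genes, and the edgeR call was lost with sex in the fit and without WT 1, WT 2, WT 3 or null 1. The median over the list was 0.019, and 4 were lower and 6 higher at an unadjusted p under 0.05, against 5.76% and 6.48% of all genes. The 8 catenins tested spanned -0.25 to 0.45, with none called, and Ctnnb1 (beta-catenin) was at -0.12 (adjusted p = 0.706). The summed catenins were 2993 to 3062 CPM in WT, 2943 to 2979 in the heterozygotes and 2825 to 2836 in the nulls, so the groups did not overlap. Ctnnb1 and Pkp4, at WT means of 1307 and 710 CPM, made up most of that sum. Single catenins went both ways in null against WT, with a median of -0.0028. At an unadjusted p under 0.05, 2 were higher (Ctnna2 at 0.45 and Ctnnd1 at 0.22) and 1 was lower (Pkp4 at -0.25). All 9 WAVE complex genes lay between -0.23 and 0.099. Of the 4 nectins, which are adhesion partners of cadherin junctions, 3 were higher at an unadjusted p under 0.05 and none was called. No partner was called in heterozygote against WT, where 6 were lower and 8 higher at an unadjusted p under 0.05 (7.33% and 5.80% of all genes) and DESeq2 called 0 (1.73% of all genes). None was called in null against heterozygote, where 4 were lower and 3 higher at that p (5.25% and 6.14% of all genes) and DESeq2 called 1 (2.11% of all genes). Of 6 repressors of Cdh1 in the epithelial-mesenchymal transition (Snai1, Snai2, Zeb1, Zeb2, Twist1 and Twist2), 5 were tested and none was called in any comparison. Their sum was 124, 84.6 and 42.4 CPM in null 3, WT 2 and WT 1, the libraries rich in mesenchyme markers, and 13.4 to 32.4 CPM in the other 6. Of the 5, 3 were lower at an unadjusted p under 0.05 in heterozygote against WT (7.33% of all genes), 0 passed that p in null against WT, and 1, Twist1, was higher in null against heterozygote (6.14% of all genes).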

How the data were processed

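RNA from the cochlear ducts of 9 embryos was sequenced as single reads from TruSeq mRNA libraries. The deposited files hold whole-number counts per Ensembl gene, which the authors made by aligning reads to mm10 with STAR and counting with HTSeq 0.6.1p1. The submitters' processing notes also name cutadapt 1.13 and DESeq2. The strand setting and annotation release are not given in the sources used here. Without strand, reads of overlapping opposite-strand genes cannot be told apart. All 37 mitochondrial genes were at 0. Symbols, exon lengths and positions came from GENCODE vM21, which matched 54165 of 54232 identifiers.

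Each comparison was fitted on its 6 libraries with edgeR 4.0.16 (R 4.3.3), using filterByExpr, TMM normalization and the quasi-likelihood test, with Benjamini-Hochberg adjustment over all genes tested. Calls needed an adjusted p under 0.05 together with a log2 fold change beyond 0.5 in either direction. The fit was tested on simulated counts. Alternatives were other scalings and filters, DESeq2 1.42.0, limma-voom (limma 3.58.1), all 9 libraries, a replicate block, a sex covariate, other fold thresholds and each embryo left out. The mesenchyme covariate, the fit without the mesenchyme-rich libraries and the test of both allele steps were added after seeing the data. All members were eligible to be named. Values in every library were given for those past the adjusted p in any comparison and for the most abundant of each class per length, and a few others were chosen after their values were seen. Members and gene lists were chosen with earlier results of these data known. Unless a sentence says otherwise, values come from all 6 libraries of a comparison.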

Additional observations from a re-analysis of the deposited data

How the results depend on the processing

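Of 1186 alternative values of the members' fold changes, 1062 kept their direction and side of the threshold, 45 lost the threshold, 30 gained it and 49 turned direction. The cause of these changes was not tested. Most of the 1062 belong to members that were not called, and all 45 losses to called ones, so the 1062 do not measure how stable the calls were. With 1 embryo left out, the null against WT calls held in 6 of 6 fits for Cdh4, 5 for Pcdh11x, 2 for Pcdh19, 1 for Pcdh20 and 0 for Cdh6. Depth limits Cdh7 and Cdh19, at up to 27 and 19 counts a library, and the fold change of Pcdh12 rests on the libraries WT 1, WT 2 and null 3. The labels do not say whether the replicate numbers pair the embryos. Same-numbered libraries correlated between -0.28 (WT 3 and null 3) and 0.20 (WT 1 and heterozygote 1). Differently numbered ones lay between -0.33 (WT 2 and null 1) and 0.35 (WT 2 and null 3). These values cannot decide it, since sex and mesenchyme markers also differed between same-numbered libraries. With the replicate block the members called were 2 in null against WT (5 without it), 4 in heterozygote against WT (1) and 1 in null against heterozygote (3). In null against WT the members called were 2 with sex, 9 with all 9 libraries or DESeq2, 3 at a log2 fold change over 1 and 1 to 8 with 1 embryo left out. In heterozygote against WT they were 0 with all 9 libraries, limma-voom or a fold over 1, 6 with DESeq2, 2 with no fold threshold and 0 to 7 with 1 embryo left out (7 without WT 3). In null against heterozygote they were 1 at a fold over 1 and 0 to 3 with 1 embryo left out. Junction partners called in null against WT (1) were 0 with sex or a fold over 1, 3 with DESeq2 and 0 to 1 with 1 embryo left out. They were 0 to 2 in heterozygote against WT with 1 embryo left out. In null against heterozygote they were 1 with the mesenchyme covariate, all 9 libraries, DESeq2 or no mesenchyme-rich libraries, and 0 to 1 with 1 embryo left out.

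Prdm16 in heterozygote against WT lost the threshold under the members' count filter (-0.55), a mean count over 100 (-0.54), the mesenchyme covariate (-0.46), all 9 libraries (-0.55) and limma-voom (-0.55), with -0.61 to -0.46 when 1 embryo was left out (past the threshold only without WT 3, adjusted p 0.0674 to 0.226 otherwise). Against WT 3 alone, without the mesenchyme-rich libraries, it was -0.41.

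Values that turned direction lay near 0 or in low genes. Without composition normalization Cdh1 was -0.0029 (null against WT) and -0.0073 (null against heterozygote) and Pcdh10 0.0017 (heterozygote against WT). With a mean count over 100 Cdh1 was -0.0042 (null against heterozygote) and Pcdh10 0.0029. With sex Cdh1 was -0.029 (null against WT) and -0.034 (null against heterozygote). With all 9 libraries Pcdh10 was 3.3e-05. With the mesenchyme covariate Cdh1 was -0.031 (null against WT), and against WT in heterozygotes Cdh1 was -0.042, Cdh4 0.012, Cdh24 -0.066 and Pcdh10 0.096. Without the mesenchyme-rich libraries Cdh15 was -0.017 (null against WT), Pcdh8 -0.049 (null against heterozygote) and, in heterozygotes against WT, Cdh1 -0.039, Cdh4 0.064, Cdh24 -0.032, Cdh13 0.12 and Pcdh10 0.096. With 1 embryo left out, values crossed 0 for Cdh1 (-0.051 to 0.074), Cdh10 (-0.21 to 0.13), Pcdh1 (-0.12 to 0.032) and Pcdh8 (-0.012 to 1.55) in null against WT. They did in heterozygote against WT for Cdh1 (-0.015 to 0.024), Cdh4 (-0.082 to 0.063), Cdh6 (-0.026 to 0.31), Cdh22 (-0.17 to 0.083), Cdh24 (-0.018 to 0.097), Pcdh1 (-0.11 to 0.047), Pcdh8 (-0.043 to 0.086) and Pcdh10 (-0.13 to 0.081). In null against heterozygote they did for Cdh1 (-0.053 to 0.072), Cdh11 (-0.26 to 0.016), Cdh13 (-0.88 to 0.25), Pcdh1 (-0.088 to 0.064) and Pcdh8 (-0.049 to 1.51).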
